A study of Mus musculus with 24 samples.

Results

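Female and male embryonic stem (ES) cells that had differentiated for 21 days were compared with the same cells after 12 days. The members were all arrays whose labels give these days, 8 of the 24 arrays of the series: 5 of day 21 (replicates P, Q, R, S and T) and 3 of day 12 (replicates K, L and M). Each array held labelled cDNA of female cells in one dye and of male cells of the same day in the other. The female sample was in Cy5 on replicates Q, R, S, T, K, L and M and in Cy3 on replicate P. Following the study's methods, the female line was taken to be PGK12.1, a strain hybrid, and the male line CCE/R. The cells were left to differentiate in suspension, with leukaemia inhibitory factor withdrawn from the medium. The labels name these lines and a further female line, 3F1, without assigning them to arrays, and 3F1 was also studied at day 12. PGK12.1 was inferred because the study lists as many biological replicates of it for these days as there are arrays. Female and male cells were each represented by a single line, so that sex and line cannot be told apart.

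ES cells come from the inner cell mass of the blastocyst and can give rise to every tissue of the embryo. Without leukaemia inhibitory factor they leave the pluripotent state and form aggregates that hold a mixture of endodermal, mesodermal and ectodermal cells. Female ES cells begin with both X chromosomes active and silence one of them as they differentiate, under the control of the non-coding RNA Xist, while male cells keep their single X active. The female:male ratio of a transcript can therefore change during differentiation through silencing of X-linked genes or through a difference in the cell types that the cultures contain. In bulk RNA, fewer cells of a type and less RNA per cell cannot be told apart.

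The arrays carry cDNA clones of the NIA 15K mouse library, and every value is a log2 ratio for a clone on an array, read here as female over male. The clones are named by source plate and well only, and 0 of 15247 clone names matched the mouse gene table used here (GRCm38.p6). No clone could thus be assigned to a gene or to the X chromosome. The defining markers of ES cells and of their derivatives could not be checked, and clones are described in groups. Day 21 arrays had values for 7683 to 13736 clones and day 12 arrays for 4985 to 10654. After subtraction of its median from each array, 9148 clones with a value on at least 4 day 21 arrays and at least 2 day 12 arrays were tested, and 4566 clones had a value on all 8.

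The ratios were spread more widely at day 21. Over the 4566 clones present on all 8 arrays, the median absolute deviation (with the scaling that matches an SD under a normal distribution) of the day 21 arrays was 0.785, 0.622, 0.650, 0.579 and 0.593 in the order P to T, against 0.460, 0.485 and 0.438 for day 12 in the order K to M. The days did not overlap. The day 21 mean of 0.646 ± 0.082 (SD, n = 5) exceeded the day 12 mean of 0.461 ± 0.024 (SD, n = 3) by 0.184 (two-sided exact permutation test, p = 0.0357, the smallest that 56 divisions of 8 arrays allow). Some labels state that abnormal spots were taken out by hand. Among the arrays with this statement (Q, R, S and T against K and L) the difference was 0.138, and the exact test there cannot give a p under 0.133.

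As deposited, the days were separated in the tail of higher female:male ratios and not in the other. Values above 2, a ratio of more than 4-fold, made up 8.10%, 10.8%, 1.79%, 5.25% and 4.62% of the values on the day 21 arrays (P to T), against 0.160%, 0.371% and 0.321% on the day 12 arrays (K to M). The groups did not overlap, and the lowest day 21 share was that of replicate R. All shares in this paragraph are over every value of an array. The sets of clones therefore differ, from 4985 clones on replicate M to 13736 on replicate T. Values below -2 made up 4.11%, 3.13%, 0.71%, 0.827% and 1.03% on the same day 21 arrays, against 1.57%, 1.62% and 0.361% on the day 12 arrays, and here the groups overlapped. Replicates K and L of day 12 had their longer tail on the side of lower ratios, with a 1st percentile of -2.39 and -2.32 and a 99th percentile of 1.42 and 1.62. With the sign of day 12 turned, the shares of its arrays change places between the tails. The day 21 arrays then exceed the day 12 arrays in both tails (below -2, 0.71% to 4.11% at day 21, against 0.160% to 0.371% at day 12), so the separation in a single tail holds only for the deposited direction.

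**Figure D1:**
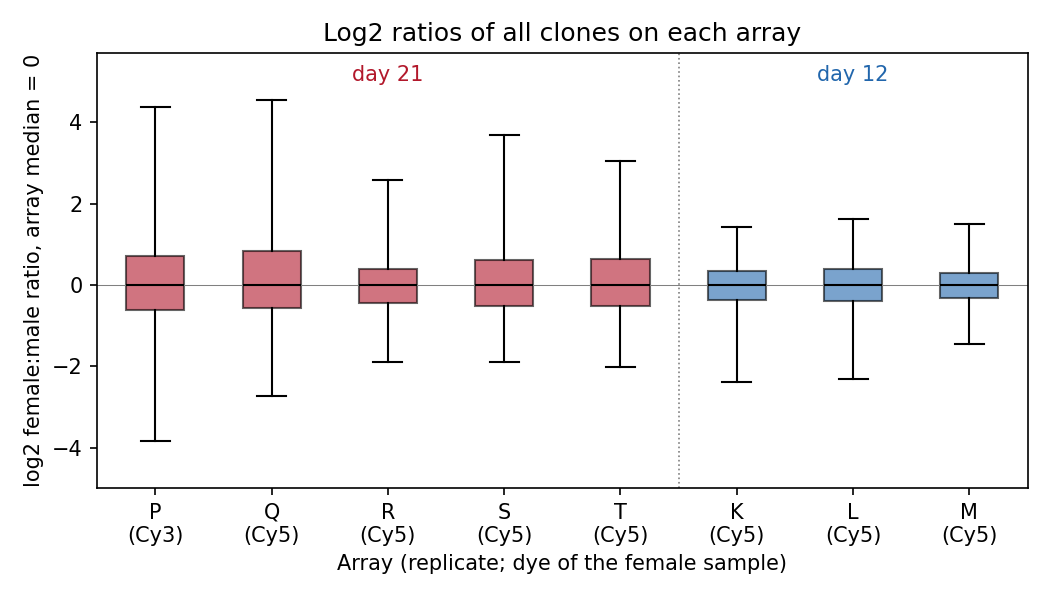
Log2 female:male ratios of all clones with a value on each array (y axis, array median set to 0), for the 5 day 21 arrays and the 3 day 12 arrays (x axis, with the dye of the female sample). Boxes span the quartiles and whiskers the 1st to the 99th percentile, which reaches 4.54 on replicate Q of day 21 and at most 1.62 on a day 12 array.

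Arrays of a day correlated above 0 with each other, and some arrays of different days clearly below 0. Across clones, the 10 pairs of day 21 arrays had correlations of 0.076 to 0.80 (median 0.56) and the 3 pairs of day 12 arrays of 0.52 to 0.62. Between the days, 7 of 15 pairs had a correlation below -0.3, of which 6 set replicates Q, S and T of day 21 against replicates K and L of day 12, all with the female sample in Cy5. Replicate M of day 12 stood apart from this, with -0.083 to 0.18 against the day 21 arrays, as did replicate R of day 21, with -0.046 to 0.18 against the day 12 arrays. The pairs of day 21 arrays with replicate M rested on fewer clones, 4717 to 4967, against 7306 to 10443 for those with K or L. Over the 4566 clones present on all 8 arrays no pair was below -0.3, and the 15 pairs lay between -0.23 and 0.25, 8 of them below 0. Among the 8950 tested clones without a rise of at least 4 at day 21, 2 of 15 pairs were below -0.3, with a lowest value of -0.36. This set leaves out the 198 clones that were higher by at least 4 and also every clone that was not tested. The 198 were chosen for their difference between the days, so leaving them out favours higher correlations by construction. These correlations are across clones, which share an array and its normalisation and are not independent.

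**Figure D2:**
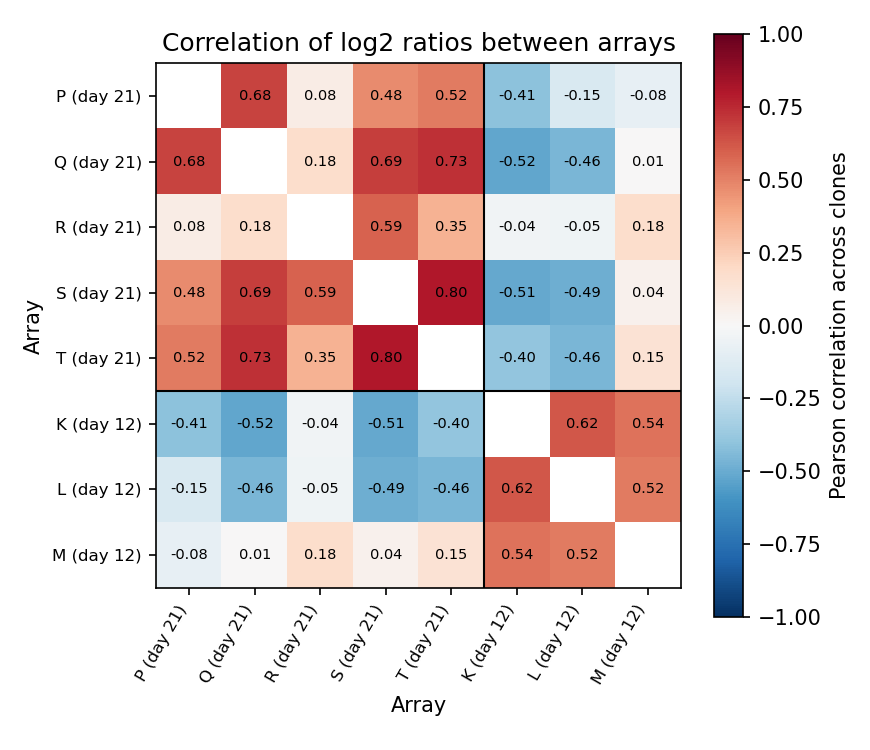
Pearson correlation of log2 ratios between each pair of the 8 arrays, across the clones with a value on both (colour scale from -1 to 1, replicate and day on both axes). The lines separate day 21 from day 12. Replicates P, Q, S and T of day 21 are opposed to replicates K and L of day 12, down to -0.52.

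Such opposition would also arise if the ratios of a day had been deposited the other way round. The labels state both dyes of each array and the study defines the ratio as female:male, so the direction was kept as deposited. Replicate P correlated above 0 with the day 21 arrays of opposite dye (0.076 to 0.68). Between the days the direction was not tested, since the genes of the clones are not known here. The day 15 arrays, both with the female sample in Cy3, differed from each other in their correlations. Replicate O had 0.31, 0.45 and 0.36 with replicates K, L and M, and -0.012 to 0.17 with the day 21 arrays. Replicate N had -0.24, -0.077 and 0.11 with K, L and M, and 0.16 to 0.56 with the day 21 arrays. With the sign of the 3 day 12 arrays turned, 232 of 9148 clones differed between the days, 91 higher and 141 lower at day 21, in place of the numbers given next. Over the 4566 clones on all 8 arrays, turning the sign gave more calls than the deposited direction, 251 higher and 358 lower, against 164 and 170.

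The female:male ratio was different at day 21 for 840 of 9148 clones (limma, adjusted p under 0.05), which is 9.18% of the clones tested. It was higher at day 21 for 561 clones (6.13%) and lower for 279 (3.05%), and 2746 clones (30%) had an unadjusted p under 0.05. Replicate M of day 12 had a value for 142 of the 561 (25.3%) and 148 of the 279 (53%), against 53.4% of clones tested. Clones without a value on M rested on replicates K and L alone at day 12. Rises were larger than falls, with a median of 3.15 on the log2 scale for the clones that rose and -1.47 for those that fell. Of the clones that rose 132 had a value on all 8 arrays, and of those that fell 130. Among the 130 of these in each direction without overlap between the days, the medians were closer in size, at 1.69 and -1.20. Over all clones tested, the difference had a median of -0.11 and quartiles of -0.59 and 0.49, and its standard error had a median of 0.38. Centring on the tested clones in place of all clones gave 581 higher and 226 lower.

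The number of calls rested on single arrays to a large extent. Replicate M had a value for 53.4% of the clones tested, and the others kept a single day 12 value when K or L was left out. Without replicate K of day 12 the number of calls was 1, without replicate L 19 and without replicate M 442. Without replicates S, T and Q of day 21 it was 36, 42 and 355, whereas it was 1264 without replicate P and 1569 without replicate R. Among the arrays with removal by hand in their labels (4 of day 21, 2 of day 12), 419 clones were higher and 276 lower, and the other 2 arrays, P and M, leave no replicates. With this mention as a term in the model, 558 were higher and 298 lower, and with the dye of the female sample as a term, which removes replicate P from the comparison, 693 and 571.

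The sizes were less dependent on single arrays than the calls, but depended on which clones were included. A difference of at least 2 (4-fold) was measured for 723 clones in the direction of higher ratios at day 21 and for 85 in the other. At a size of at least 4 (16-fold) the numbers were 198 and 3, and at a size of at least 6 (64-fold) 49 and 0. Among the 4566 clones on all 8 arrays they were 17 and 0 at a size of at least 4, and 4 and 0 at a size of at least 6. Leaving out any single array gave 169 to 240 clones higher by at least 4 and 1 to 5 lower. With the sign of day 12 turned, 6 clones were higher and 8 lower by this size. The single largest difference, 10.05 (adjusted p = 0.0029 from limma), belonged to a clone with values between 4.80 and 6.91 on 4 day 21 arrays and of -4.51 and -3.78 on 2 day 12 arrays.

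Most of the clones that changed lay on opposite sides of equal expression on the 2 days. Of the 561 that rose, 551 (98.2%) had a mean ratio above 0 at day 21 and below 0 at day 12, with a median of 2.01 at day 21 and -1.13 at day 12. Of the 279 that fell, 263 (94.3%) were below 0 at day 21 and above 0 at day 12, with a median of -0.89 at day 21 and 0.60 at day 12. Among all clones tested, 58.3% had opposite signs on the 2 days. A difference between opposite signs is favoured by the selection for size, and these shares are given as a description. The ratio was further from 0 at day 21 than at day 12 for 91.6% of the clones that rose and 68.1% of those that fell, against 66.3% of all clones tested. The opposite signs hold only for the deposited direction, since with the sign of day 12 turned the same 551 and 263 clones lie on the same side of 0 on both days.

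**Figure D3:**
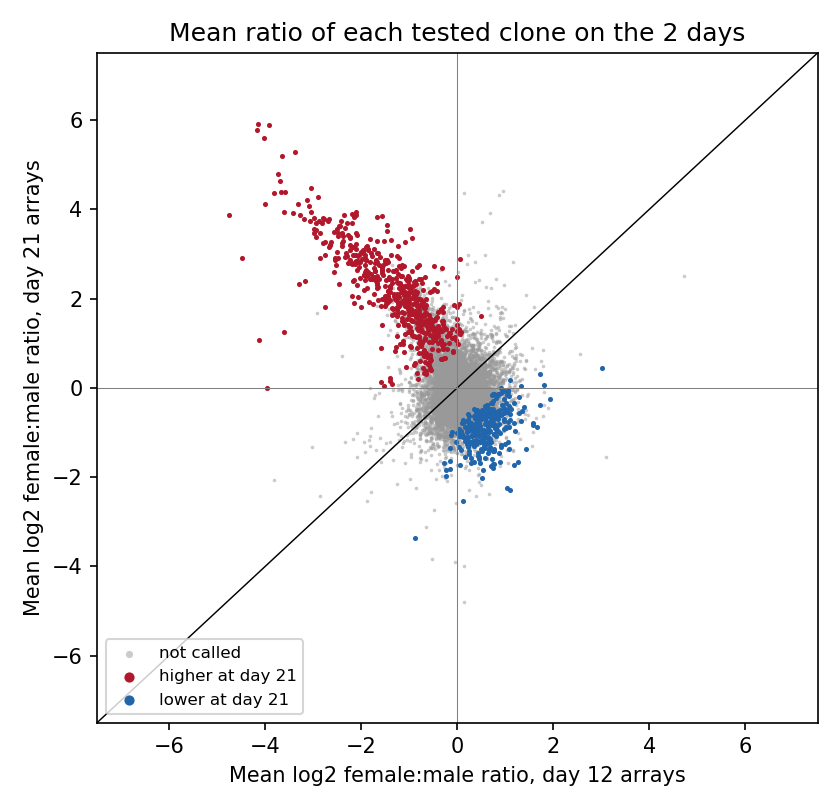
Mean log2 female:male ratio of each of the 9148 clones tested, at day 21 (y axis) and at day 12 (x axis), with clones called at an adjusted p under 0.05 in colour and a line of equal ratios. The clones that rose stretch from the centre to the upper left, up to a mean of 4 to 6 at day 21 with -3 to -4 at day 12, and no such arm is seen among those that fell.

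Clone H3033b06 had the largest rise among the clones called with a value on all 8 arrays and no overlap between the days. Its log2 ratio was 5.45, 6.40, 0.50, 5.59 and 4.38 on the day 21 arrays (P to T), against -3.74, -3.41 and -2.02 on the day 12 arrays (K to M). All day 21 values but that of replicate R were above 4. The difference was 7.52 with a standard error of 1.18 (limma, adjusted p = 0.0225, n = 5 and 3). Clone H3046e07, the next by this rule, had 6.02, 6.22, -0.18, 5.16 and 4.20 on the day 21 arrays, against -3.51, -3.25 and -1.94 on the day 12 arrays. Replicate R again lay far below the other day 21 arrays, and the difference was 7.18 with a standard error of 1.31 (limma, adjusted p = 0.0295).

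The largest falls by the same rule were smaller than these rises. Clone H3077f07 had -0.041, -2.19, -0.59, -2.16 and -1.40 on the day 21 arrays (P to T), against 0.95, 0.78 and 0.99 on the day 12 arrays (K to M). The 3 day 12 values were close together, with an SD of 0.11, and the day 21 values scattered more, with an SD of 0.95. The difference was -2.18 with a standard error of 0.50 (limma, adjusted p = 0.0356). Clone H3041a07 had -0.28, -1.25, 0.37, -0.68 and -0.074 on the day 21 arrays, against 1.27, 2.56 and 1.31 on the day 12 arrays. Its mean was near equal expression at day 21 (-0.38) and more than 2-fold higher in female cells at day 12 (1.71), a difference of -2.10 with a standard error of 0.44 (limma, adjusted p = 0.0323). With the sign of day 12 turned, the differences of the 4 clones were 1.41, 1.39, -0.37 and 1.33, none with an adjusted p under 0.05.

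**Figure D4:**
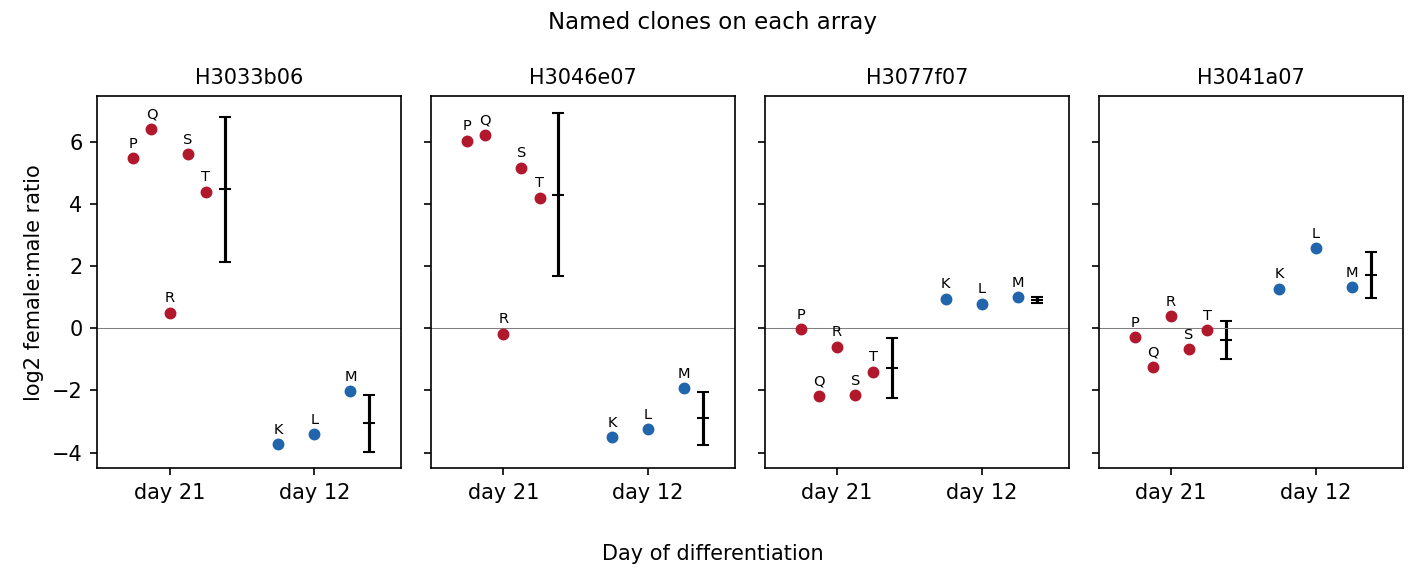
Log2 female:male ratio of the 4 named clones on each array (points, labelled by replicate), at day 21 and at day 12, with the mean and SD of each day beside the points. Replicate R lies at 0.50 and -0.18 for the clones that rose, against 4.20 or more on the other day 21 arrays.

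Of the clones called with a value on every array, 130 of the 132 that rose and all 130 that fell had day 21 values that did not overlap the day 12 values. Over all 4566 clones present on the 8 arrays, whether called or not, 8.45% were higher and 13.4% lower at day 21 without overlap. Tested on their own, these 4566 clones gave 164 higher (3.59%) and 170 lower (3.72%), 7.31% in all (1270 or 27.8% at an unadjusted p under 0.05), and 262 of these 334 clones were also called among the 9148. The share of rises among the calls was thus 49.1% here, against 66.8% of the calls among the 9148. When these clones set the centre of each array, the split was 216 higher and 111 lower. Without replicate K, L or M of day 12 none of the 4566 was called from limma (840, 995 and 877 at an unadjusted p under 0.05), and without replicates S, Q and T of day 21 39, 73 and 147 were, against 656 without replicate P. Among the arrays with removal by hand in their labels, 23 were higher and 53 lower.

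The clones with the largest rises shared a profile across the arrays. For the 198 clones with a difference of at least 4, which were chosen by these values, the median log2 ratio was 4.06, 4.53, 0.30, 3.50 and 2.90 on the day 21 arrays (P to T), against -2.15, -2.16 and -1.37 on the day 12 arrays (K to M). The median was similar on replicate P, with the female sample in Cy3, and on replicate Q, with it in Cy5. Both arrays entered the choice of these clones, so their medians do not test an effect of the dye. Replicate R, in Cy5, was near equal expression, although 161 of the 198 clones had a value on it. On replicate M of day 12 only 19 of the 198 had a value (9.60%, against 53.4% of all clones tested), and 5.26% of these were above 0.

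The same clones had raised ratios on some of the arrays that took no part in their selection. On replicate C of day 0, undifferentiated cells with the female sample in Cy5, their median was 2.38 and 99.5% of the 189 with a value were above 0. On replicates A, B and D of day 0 the median was 0.39, 0.29 and 0.49, with values for 65, 13 and 192 of the 198 clones. Of these values 69.2%, 69.2% and 95.8% were above 0. On the 6 arrays of days 2, 4 and 7 it lay between -0.23 and 0.00. In thymic lymphocytes of female against male mice it was 0.73 and 0.68 on the 2 arrays, with 97.4% and 95.8% of values above 0, and in inner cell masses it was 0.17 and -0.089. The median of all clones tested was between -0.060 and 0.035 on each of these arrays.

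The day between the 2 days compared was not uniform. Day 15 has 2 arrays, N and O, both with the female sample in Cy3, and they took no part in the tests. The 198 clones had a median of 2.04 on replicate N, where 98.9% of the 175 values were nearer to the day 21 than to the day 12 mean of the clone, and of -0.49 on replicate O, where 3.39% of the 118 values were. On both arrays 98.3% of the values lay between the means of the 2 days. The clones were chosen for means at least 4 apart, which largely fixes this share. For the 561 clones that rose the medians were 1.45 on replicate N and -0.30 on replicate O, and for the 279 that fell -0.079 and 0.042. Clone H3033b06 had 2.20 and -1.13 on these arrays, and clone H3077f07 0.16 and 0.60.

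**Figure D5:**
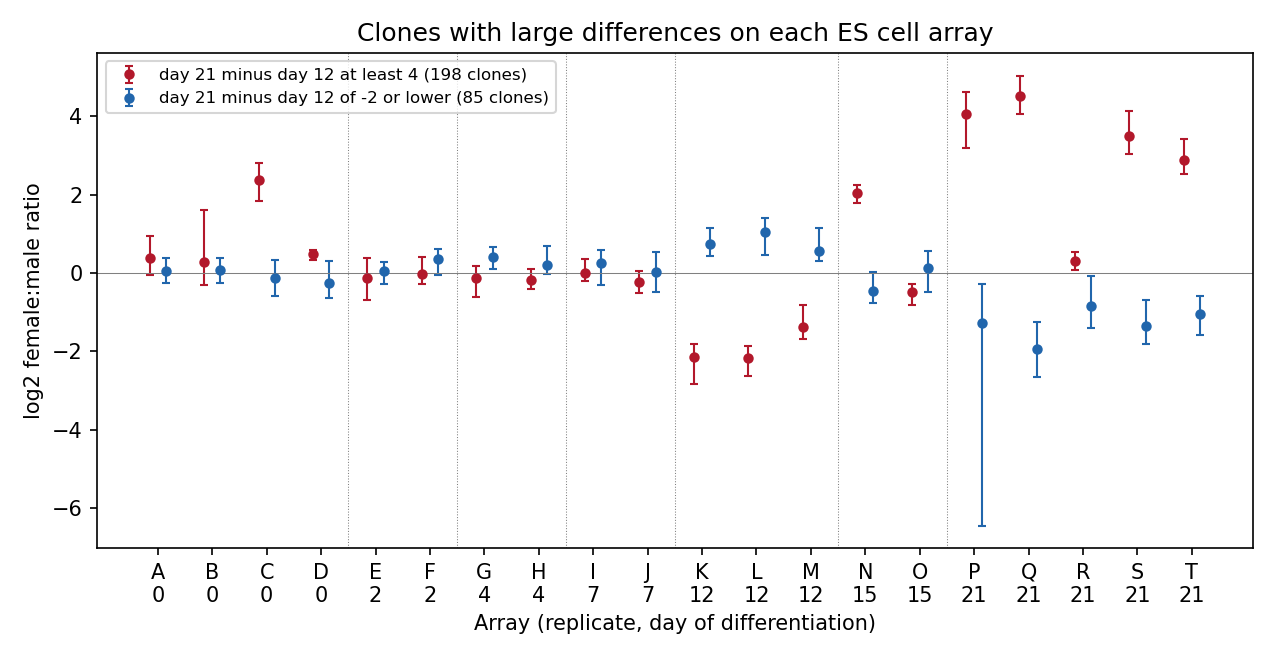
Median log2 female:male ratio (points) with quartiles (bars) on each of the 20 ES cell arrays in order of day, for the 198 clones that were higher at day 21 by at least 4 and the 85 that were lower by at least 2. The 198 clones are far above 0 on replicates P, Q, S and T of day 21, N of day 15 and C of day 0, and below 0 on the day 12 arrays.

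For the 85 clones with a difference of -2 or lower, 40 of them called, the median was -1.27, -1.94, -0.85, -1.36 and -1.05 on the day 21 arrays (P to T), against 0.74, 1.05 and 0.57 on the day 12 arrays (K to M). All day 21 medians, replicate R included, were below all day 12 medians, which the choice of clones fixes in part. On replicate P the lower quartile of their 43 values was -6.46. At day 0 their medians lay between -0.26 and 0.073, although replicates B and D had values for 36 and 37 of them. On the arrays of days 2, 4 and 7 the medians lay between 0.020 on replicate J and 0.42 on replicate G. At day 15 they were -0.45 on replicate N and 0.12 on replicate O.

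The share of rises was lowest among the clones that nearly all of the other arrays measured. Of the 5686 clones with a value on 10 to 12 of the 12 remaining ES cell arrays, 2.13% rose and 3.45% fell, and 18 had a difference of at least 4. Of the 1776 with a value on 7 to 9 arrays, 11.2% rose and 3.10% fell, and 97 had such a difference. Of the 1328 with a value on 4 to 6, 15.1% rose and 1.88% fell, and 68 had such a difference. Of the 358 with a value on 0 to 3, 11.5% rose and 0.838% fell, and 15 had such a difference. The share that rose was thus highest at 4 to 6 arrays, and the share with a difference of at least 4 at 7 to 9 (5.46%, against 4.19% at 0 to 3). Replicate M of day 12 had a value for 79.7%, 15.6%, 4.44% and 3.91% of the classes from most to fewest arrays. A clone may lack a value because its signal was low or because its spot was removed, and the part of low signal in the rises was not tested, as spot intensities were not used here.

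The position of a clone in the library was also compared with its difference. The 198 clones came from 100 of the 159 source plates, with at most 7 on a plate (of 63 tested there), and plates accounted for 7.11% of the variance of the differences. The median difference of a plate lay between -0.77 and 0.54, and that of the 12 well columns between -0.33 and 0.01. With the mean of each plate removed on each array, 659 clones were higher and 586 lower at day 21, and 161 were higher by at least 4. Among clones on all 8 arrays, 179 were then higher and 388 lower, against 164 and 170. Several clones can derive from the same transcript, so the number of clones is not a number of genes.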

How the data were processed

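The deposited values are log2 ratios between the dyes of an array. According to the study's methods, the authors scanned with balanced channels, discarded abnormal spots manually, used GenePix 6.0 for extraction and Gepas for normalisation. Which Gepas method was used, how background and duplicate spots were handled and why a clone lacks a value is not stated in the sources read. Days and dyes were taken from the labels. Where arrays are divided by removal by hand, only its mention in the label is meant. The study's methods describe such removal without excepting any array.

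Each array was centred on its median. Clones with values on at least 4 day 21 and 2 day 12 arrays were fitted with limma 3.58.1 in R 4.3.3 (a mean per day, moderated statistics, Benjamini-Hochberg adjustment) and called at an adjusted p under 0.05. The script was tested on simulated data. The number of arrays limits the precision. Spreads were compared by an exact permutation test over arrays. At most 2 clones in each direction were named, those with the largest differences among clones called, present on all 8 arrays and not overlapping between the days.

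The planned median of X-linked clones and 13 lists of genes (markers of pluripotent and differentiated cells among them) were not computed, since clones could not be matched to genes. The comparison, the lists and the tests were chosen with earlier results of these data known. The groups of clones by size of difference and by number of other arrays were chosen after their values were seen.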

Additional observations from a re-analysis of the deposited data

How the results depend on the processing

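The count of 840 changed clones was 1984 with all 20 ES cell arrays in the fit (1115 higher and 869 lower), 1775 with a common spread of the arrays (1077 and 698), 2831 with array weights (1469 and 1362), 1264 with dye as a covariate, 232 with the day 12 sign turned and 30 at an adjusted p under 0.01 (29 and 1). Of the 30 clones at an adjusted p under 0.01, 5 had a value on replicate R and 4 on replicate M. The count was 334 for clones on all 8 arrays and, added after seeing the data, 1948 with a weight per day. It ran from 1 to 1569 with 1 array left out. Values as deposited (937), centring on the tested clones (807), robust moderation with statmod 1.5.0 (792), at least 1 value on each day (972), removal of plate means (1245, 52.9% higher against 66.8%, with the median difference at -0.23), removal by hand as a covariate (856) or as a restriction (695) and a difference of at least 1 (807) stayed within 1.5 times, as did 1213 without both R and M, also added later. The 334 calls among clones on all 8 arrays were 839, 589, 1132, 656, 609, 567 and 648 with all 20 arrays, a common spread, array weights, dye, the sign turned, plate means removed and a weight per day, and 179, 76 and 72 with removal by hand as a covariate, as a restriction, and without both R and M. They were 0 at an adjusted p under 0.01 (1270 at an unadjusted p under 0.05) and 0 to 656 with 1 array left out. The share of rises was 49.1%, 66.1% when centred on these clones and 31.6% without plate means.

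The difference in spread was 0.138 among arrays with removal by hand in their labels. It was 0.150 to 0.201 with 1 array left out, where the exact test cannot give a p under 0.0571. The named clones kept their direction in 23 alternatives each, but for H3041a07 with the day 12 sign turned, at 1.33, and lost the call in 5 (H3033b06, H3046e07), 7 (H3077f07) and, this setting included, 5 (H3041a07), with adjusted p up to 0.544, 0.589, 0.713 and 0.184. No paired analysis was possible because the labels give the days no shared replicate numbers. Of 11 comparisons of the 5 day 21 arrays by Dixon's test, 0 passed the critical value of 0.71. The highest values were 0.684 for H3046e07 and 0.658 for H3033b06, both with replicate R as the extreme. The test thus does not show that the 5 arrays are alike.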
